A study of Homo sapiens with 8 samples.

Results

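RNA sequencing of HCT116 cells carrying MAPKAPK2 shRNA 1 was compared with that of HCT116 cells carrying a control shRNA. An shRNA is a short hairpin RNA that the cell processes into a small RNA guiding the breakdown of a matching mRNA. HCT116 is an established human colorectal carcinoma line. Each group had 2 libraries, both grown at 20 mM glucose. The design text gives 24 h for the control cells. The time for the hairpin cells, the way the hairpins were delivered, their sequences and whether the cells were clones or pools are not stated in the labels. The comparison covers 14762 genes of 58735 in the deposited table, namely those that reach 1 FPKM in 2 or more of these 4 libraries. FPKM is a fragment count scaled by the length of a gene's exons and by a size set for the library. The series holds 8 libraries in all. The other 4 are 2 with MAPKAPK2 shRNA 2 at 20 mM glucose and 2 of control shRNA cells kept for 24 h at 0 mM glucose, and they enter the fit for its estimate of spread. The libraries of shRNA 2 also show where shRNA 1 differs from a second hairpin against the same gene. The labels number the libraries of a group 1 and 2 and do not say whether each was grown separately. The p-values therefore reflect the spread of these libraries alone, and that spread may be technical.

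MAPKAPK2 encodes MK2, a serine/threonine kinase that p38 MAP kinases phosphorylate and activate during stress and inflammatory signalling. MK2 phosphorylates the small heat shock protein HSPB1 and the mRNA-binding protein tristetraprolin (ZFP36), which binds AU-rich elements and promotes decay of the mRNAs that hold them. It also takes part in checkpoint signalling after DNA damage. Cells have a close relative, MK3 (MAPKAPK3), with overlapping substrates.

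The 4 libraries held 14252316 to 18270915 reads in genes. Mitochondrially encoded genes took 6.83% and 7.82% of the reads in the controls and 11.1% and 9.62% with shRNA 1. Across genes, which are not independent replicates, Pearson's r between libraries on the log2(FPKM + 1) scale was 0.972 between the controls, 0.970 between the shRNA 1 libraries and 0.927 to 0.937 across the groups. Markers of colorectal epithelium were abundant, with 6 of 7 past the filter and a summed level of 1512 and 1548 FPKM in the controls and 1578 and 1380 with shRNA 1, while the intestinal marker VIL1 stayed at or below 0.0614 FPKM in each library. Markers of leukocytes and endothelium were near 0, with summed levels of 0.509 to 0.828 FPKM for 5 leukocyte genes and 0.0760 to 0.169 for 4 endothelial genes. The 5 neural genes, which HEK293 cells can also express, summed to 8.98 and 8.19 FPKM in the controls and 9.62 and 8.51 FPKM with shRNA 1. Most of that was NES, which did not pass the test, while TUBB3 rose by 0.43 on the log2(FPKM + 1) scale, a call lost in 6 of 8 fits that leave 1 library out, and SOX2 had 0 reads. Of the exon bases of TUBB3 35.8% overlap AC092143.1. Of 6 fibroblast genes COL1A1 alone passed the filter (6.72 and 6.28 FPKM in the controls, 3.84 and 4.03 FPKM with shRNA 1), and DCN and LUM had 0 reads.

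MAPKAPK2 (ENSG00000162889, chromosome 1, 206684944 to 206734283, plus strand, GRCh38) stood at 16.4 and 16.2 FPKM in the controls and at 2.77 and 2.54 FPKM with shRNA 1, from 219 and 163 reads. Both shRNA 1 libraries lay far below both controls, as their labels say. The libraries of the 2 groups do not overlap in 68.7% of all genes tested, so a lack of overlap alone says little. The difference on the log2(FPKM + 1) scale was −2.24 (SE 0.096, limma adjusted p = 0.000189), and 16.3% of the control level remained. More of the mRNA remained than with shRNA 2, by 0.95 on the same scale (limma adjusted p = 0.00115).

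Across genes the response to shRNA 1 was wide and mostly modest in size. The limma test called 3423 genes, 23.2% of those tested, at a Benjamini-Hochberg adjusted p under 0.05. Of these 1619 were higher with shRNA 1 (11.0%) and 1804 lower (12.2%), and 323 and 296 of them changed by at least 1 on the log2(FPKM + 1) scale. A change of less than 1.5-fold on this scale was found for 600 of the higher and 682 of the lower genes. In each of the 1619 higher and 1804 lower genes the libraries of the 2 groups do not overlap. Statements below that the groups are apart, or that both libraries lie higher or lower, follow from the call and add nothing to it. List counts below are to be read beside the shares of 11.0% higher, 12.2% lower and 23.2% called. The count of 3423 genes rests on having 2 libraries on each side. It was 1052 and 1118 without control 1 or control 2, and 1095 and 1191 without library 1 or library 2 of shRNA 1. It was 2223 without the filter on low values.

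Genes named below as changed passed the test in all 8 fits that leave 1 library out, unless a smaller number is given. Counts for gene lists that follow the words "with 1 library left out" are given in the order without control 1, without control 2, without shRNA 1 library 1 and without shRNA 1 library 2. The median difference over all 14762 genes was −0.01, and it was −0.002 to 0.024 under 3 other scalings. The median-of-ratios factors of the deposited FPKM were already 0.994 to 1.005, and quantile normalization makes all libraries alike in distribution. Neither could therefore move this median far, so its closeness to 0 is no independent check. Of the 14762 genes 500 reached the filter through the shRNA 1 libraries alone and 385 through the controls alone, so that a difference was built into their selection. Among the genes named below these are KRT13, MSH4, CEMIP, AVPR2, LAMA3 and DUSP10, measured through shRNA 1, and SLC2A3, NGFR, KRT81, TENT5B, CTGF, THBS1, ARG2 and RPS6KA5, measured through the controls. Where a list holds such members, its counts are also given without them. Abundant genes leaned downwards. Among 286 genes with a mean over 100 FPKM, 19 were higher and 59 lower, with a median of −0.26, while the 6539 genes between 1 and 5 FPKM had 593 higher and 477 lower and a median of 0.03.

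**Figure D1:**
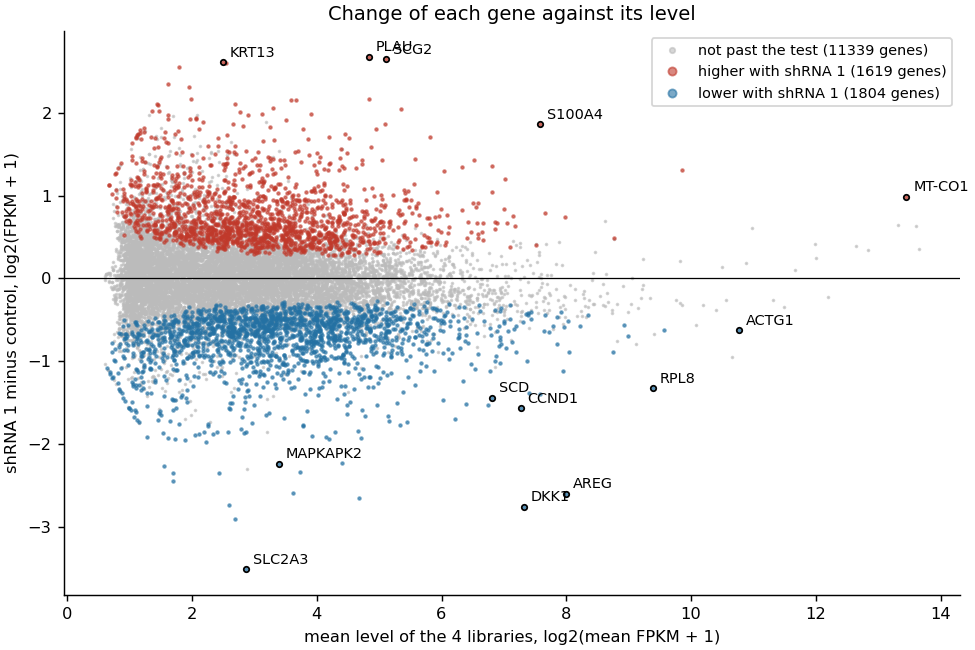
Each point is 1 of the 14762 genes, with the mean level of the 4 libraries on the x axis, as log2(mean FPKM + 1), and the difference between shRNA 1 and control on the y axis. The 1619 higher and 1804 lower genes spread over nearly the whole range of levels, and among the most abundant genes more points lie below 0 than above it.

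The largest rises among the protein-coding genes named by size were of PLAU, SCG2 and KRT13. PLAU, urokinase, a secreted protease that activates plasminogen, went from 6.85 and 6.55 FPKM to 48.7 and 47.8 FPKM, a 7.20-fold rise (log2 difference 2.68, SE 0.13, limma adjusted p = 0.00022). SCG2, which encodes the secretory granule protein secretogranin II, went from 8.03 and 8.91 FPKM to 60.1 and 56.6 FPKM (2.65, SE 0.12). KRT13, a keratin of stratified epithelia, went from 0.657 and 0.521 FPKM to 8.66 and 8.71 FPKM (2.61, SE 0.16). The controls and the shRNA 1 libraries were far apart for each of these genes and close within a group. Of the exon bases of PLAU 31.1% overlap C10orf55, so its level is uncertain to that extent.

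MSH4, known for its role in meiotic recombination, went from 0.952 and 0.396 FPKM to 8.29 and 9.73 FPKM, with 52 and 23 reads in the controls. STN1, a subunit of the CST complex at telomeres, went from 14.4 and 15.4 FPKM to 66.3 and 62.7 FPKM. ATP5MC1, a subunit of the mitochondrial ATP synthase ring, went from 8.99 and 9.80 FPKM to 47.4 and 44.2 FPKM. Of the 35 nuclear genes of oxidative phosphorylation complexes in the list it was the single member that rose, and 1 fell, UQCRC2, whose call was lost in 4 of the 8 leave-one-out fits. The list's median was −0.22, and 8 of its members fell in the fit to these 4 libraries alone and 7 and 6 without library 1 or library 2 of shRNA 2. The other leading rises were TP53INP1, PKIB, KLK7, MXRA8, CEMIP and TSPAN1, with log2 differences of 1.94 to 2.15.

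AREG, DKK1, CDK6, SLC2A3 and UHMK1 were among the 12 protein-coding genes with the largest falls. AREG, amphiregulin, a ligand of the EGF receptor, went from 425 and 451 FPKM to 71.5 and 71.1 FPKM (log2 difference −2.60, SE 0.09, limma adjusted p = 7.8e-05). DKK1, a secreted Wnt inhibitor, went from 271 and 283 FPKM to 40.8 and 39.2 FPKM (−2.76, SE 0.10). CDK6, a kinase that drives entry into S phase, went from 22.4 and 19.9 FPKM to 2.95 and 3.81 FPKM (−2.34, SE 0.22). For each of these genes the shRNA 1 libraries lay below both controls.

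SLC2A3, a high-affinity glucose transporter that reached the filter through the controls alone, had the largest of these falls, from 11.5 and 13.4 FPKM to 0.155 and 0.191 FPKM. Those levels rest on 18 reads in each shRNA 1 library, against 1180 and 1473 in the controls. UHMK1, a kinase known to bind stathmin and splicing factors, went from 35.7 and 32.0 FPKM to 5.47 and 7.45 FPKM. The receptor NGFR and the keratin genes KRT80 and KRT81 had log2 differences of −2.90, −2.60 and −2.73. Of the exon bases of NGFR 27.1% overlap AC015656.1.

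**Figure D2:**
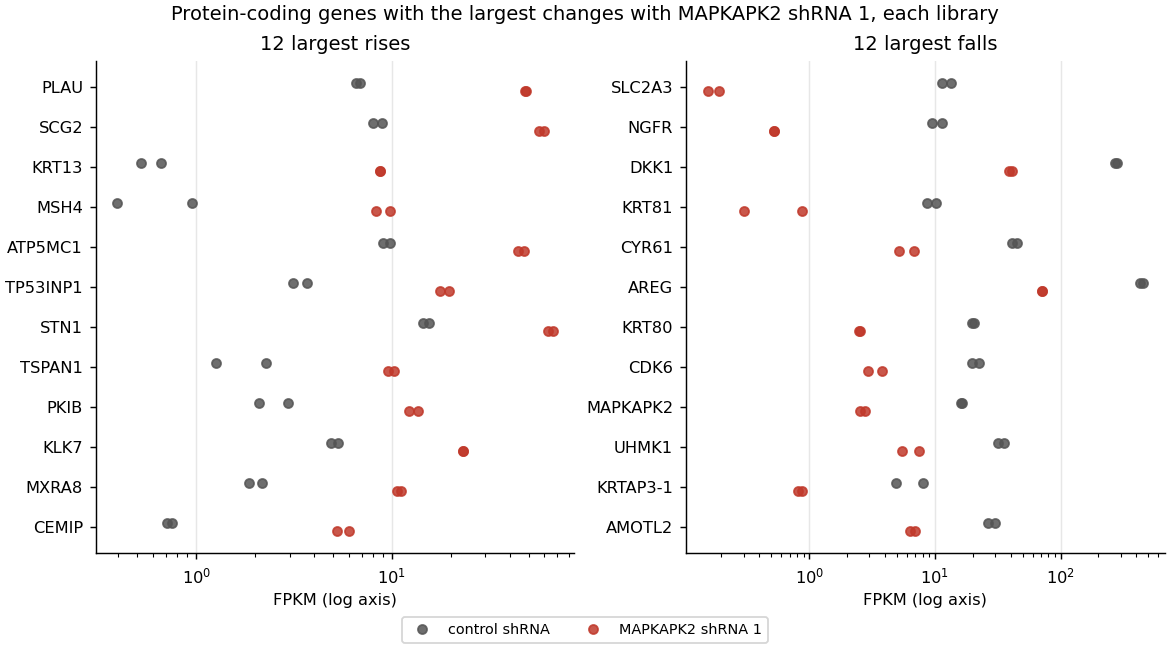
FPKM on a log axis for the 12 protein-coding genes with the largest rises (left) and the 12 with the largest falls (right), 1 point per library, control in grey and shRNA 1 in red. In each gene the 2 red points lie apart from the 2 grey ones, which the choice of these genes required. SLC2A3 shows the widest gap, from 11.5 and 13.4 FPKM to 0.155 and 0.191 FPKM.

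Around MK2 itself, genes of the pathway changed in both directions. Of 24 genes in the p38 and MK2 list 23 passed the filter, and 2 rose and 6 fell, MAPKAPK2 among the latter. These 8 are 34.8% of the measured members, where 23.2% of all genes were called. That share counts MAPKAPK2, the target of the hairpin, and is raised by it. Without the 2 members measured through 1 group only, 1 rose and 5 fell. With 1 library left out 0, 1, 1 and 1 rose and 3 fell each time, while 5 rose in each fit that leaves out 1 library of shRNA 2. The list's median was −0.03, against −0.01 over all genes, and 0.05 under quantile normalization. Of the kinases upstream, MAPK14 (p38α) stood at 8.84 and 8.44 FPKM in the controls and at 7.19 and 6.99 FPKM with shRNA 1, a difference of −0.25 (limma adjusted p = 0.107). MAPKAPK3 stood at 24.0 and 23.9 FPKM in the controls and 30.1 and 29.04 FPKM with shRNA 1, a difference of 0.29 that did not pass (limma adjusted p = 0.0654) but did under 6 of 20 alternatives, quantile normalization and the fit to these 4 libraries alone among them. Among MK2 substrates, HSPB1 stood at 289 and 295 FPKM in the controls and at 239 and 185 FPKM with shRNA 1 (−0.47, limma adjusted p = 0.0845), and it passed under 5 of 20 alternatives, limma voom among them.

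ZFP36, the gene of tristetraprolin, fell from 35.4 and 35.0 FPKM to 24.5 and 25.2 FPKM (−0.49, SE 0.09), a call that was lost in 4 of 8 leave-one-out fits. TAB1, an adaptor of the kinase TAK1 that can also bind p38α, fell from 7.08 and 7.82 FPKM to 4.18 and 3.70 FPKM. DUSP1, a phosphatase that inactivates p38 and JNK, fell from 8.94 and 9.13 FPKM to 5.87 and 5.83 FPKM. The related phosphatase gene DUSP16 rose from 3.51 and 3.81 FPKM to 7.92 and 7.85 FPKM, past the test in 7 of 8 leave-one-out fits. RPS6KA5 (MSK1), a further p38-activated kinase, MAP2K3 and DUSP10 had log2 differences of −0.79, −0.41 and 0.71 that passed, with calls lost in 4, 6 and 6 of those 8 fits. Of 12 measured inflammatory mRNAs with AU-rich elements, of 25 listed, 3 rose and 1 fell, the same counts as without the 3 members measured through 1 group only, and with 1 library left out 1 rose and 1 fell each time. PLAU, described above, was among the 3. The called share of this list was 33.3%, where 23.2% of all genes were called. The member that fell was IER3, a stress-induced survival gene, from 328 and 347 FPKM to 166 and 143 FPKM, and 26.5% of its exon bases overlap IER3-AS1.

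Promoters are shown here for single genes that fell, to let the motifs tied to the groups described next be seen. Most members of the replication, mitosis and cholesterol lists fell, while the immediate-early list, from which EGR1 comes, had members in both directions. Sequences come from RefSeq tables on GRCh38.p14 and give the 150 bases before the annotated start, with a searched motif in capitals. The E2F motif is TTTCCCGC (shown as its reverse complement where it lies on the other strand), the CHR, a motif of late cell cycle genes, is TTTGAA, the sterol regulatory element is the site of SREBP factors, and the CArG box is the site of serum response factor. UHRF1 (chr19:4909351-4909500) and SREBF2 (chr22:41832955-41833104), both on the plus strand, hold an E2F motif and a sterol regulatory element.
UHRF1: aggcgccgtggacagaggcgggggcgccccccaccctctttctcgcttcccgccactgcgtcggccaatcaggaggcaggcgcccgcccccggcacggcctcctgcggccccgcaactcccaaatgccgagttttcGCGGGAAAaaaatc
SREBF2: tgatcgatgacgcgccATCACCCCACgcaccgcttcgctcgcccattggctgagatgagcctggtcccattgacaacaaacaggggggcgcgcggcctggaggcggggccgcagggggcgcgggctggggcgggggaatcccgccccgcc
The 2 mitotic genes CDC20 (chr1:43358831-43358980) and CENPA (chr2:26785906-26786055), on the plus strand, hold a CHR.
CDC20: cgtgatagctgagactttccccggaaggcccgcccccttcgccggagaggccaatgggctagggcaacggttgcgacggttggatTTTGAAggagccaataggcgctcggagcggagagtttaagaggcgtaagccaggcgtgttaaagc
CENPA: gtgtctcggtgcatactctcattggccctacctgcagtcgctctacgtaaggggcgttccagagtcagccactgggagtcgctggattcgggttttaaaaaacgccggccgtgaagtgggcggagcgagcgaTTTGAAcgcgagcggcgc
The immediate-early gene EGR1 (chr5:138465329-138465478, plus strand) holds 2 CArG boxes.
EGR1: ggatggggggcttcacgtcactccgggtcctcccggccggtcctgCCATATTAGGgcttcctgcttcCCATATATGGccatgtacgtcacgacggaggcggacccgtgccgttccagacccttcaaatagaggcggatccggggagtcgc

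Windows ran from 250 bases before to 50 after the start and were searched on both strands. The E2F motif was found in 11 of 44 replication list promoters (25%) and in 1.66% of all 27305 promoters. That list was drawn up as DNA replication and E2F genes, so a high share there is partly built in. Within that list the motif was in 7 of 32 promoters of genes that fell (21.9%) and in 4 of the 12 others (33.3%). The CHR was found in 20 of 31 mitosis list promoters (64.5%) and in 15.4% of all, and within that list in 12 of 21 promoters of genes that fell (57.1%) and 8 of the 10 others (80.0%). In neither list was the motif more frequent among the genes that fell. For protein-coding genes as a whole the shares differed less. The CHR was in 12.3% of promoters of genes that fell, 8.00% of those that rose and 8.72% of those that did not pass, and the E2F motif in 3.38%, 2.79% and 2.60%. The sterol regulatory element was in 1 of 20 cholesterol list promoters, that of SREBF2, and in 0.154% of all, and the CArG box in 1 of 20 immediate-early list promoters and 1.29% of all. In the list of YAP, TEAD and SRF targets the CArG box was in 6 of 21 promoters (28.6%). As targets of serum response factor were listed, a high share is partly built in there too. The box was in 4 of the 11 promoters of genes that fell (36.4%) and in 2 of the 10 others (20.0%). A match is a description of the letters only.

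DNA replication genes fell as a group. All 51 genes of the list, drawn up as DNA replication and E2F genes, passed the filter in both groups. Of these 38 fell and 0 rose, where 12.2% of all genes fell. With 1 library left out 23, 18, 22 and 20 fell and 0 rose each time. The list's median was −0.58 against −0.01 over all genes, and 47 members stood below 0. UHRF1, which keeps DNA methylation in place behind the replication fork, went from 56.1 and 49.5 FPKM to 16.7 and 15.1 FPKM (log2 difference −1.67, limma adjusted p = 0.000453). CDC6 and ORC1, which load the replicative helicase, went from 27.8 and 29.2 FPKM to 9.14 and 10.3 FPKM and from 20.2 and 18.2 FPKM to 8.95 and 9.16 FPKM. In each case both shRNA 1 libraries were below both controls. TYMS, thymidylate synthase, had a log2 difference of −1.92, and 46.6% of its exon bases overlap ENOSF1.

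Of 18 measured cyclins, kinases and inhibitors of the G1 phase 8 fell, 0 rose and 10 did not pass, and 5, 5, 5 and 6 fell with 1 library left out. The list's median was −0.13 (−0.09 under quantile normalization), with 13 members below 0 and 5 above. Called genes made up 44.4% of the list, against 23.2% of all genes. CCND1, cyclin D1, the partner of CDK6, went from 232 and 227 FPKM to 76.6 and 76.5 FPKM (log2 difference −1.57, SE 0.12, limma adjusted p = 0.000713). CDC25A, a phosphatase that activates CDKs, went from 18.9 and 19.6 FPKM to 6.72 and 6.70 FPKM, and CDK2 from 22.9 and 23.6 FPKM to 10.2 and 8.16 FPKM. Both shRNA 1 libraries were below both controls for each.

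Mitotic genes fell with shRNA 1 and stood lower than with shRNA 2. Of 38 measured genes of the mitosis and G2/M list 24 fell and 1 rose, with a median of −0.53 and 37 members below 0. Its called share was 65.8%, where 23.2% of all genes were called. With 1 library left out 12, 8, 11 and 9 fell and 0, 0, 0 and 1 rose. CENPA, the histone variant of centromeres, went from 13.0 and 13.6 FPKM to 4.87 and 4.95 FPKM (−1.27, limma adjusted p = 0.00142), and CDC20, an activator of the anaphase-promoting complex, from 152 and 154 FPKM to 85.7 and 73.5 FPKM. ESPL1, separase, which opens sister chromatids, went from 14.0 and 11.7 FPKM to 6.00 and 6.17 FPKM. Both groups were apart in all 3 genes.

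In the direct test of shRNA 1 against shRNA 2, which called 24.7% of all genes (10.5% higher and 14.2% lower with shRNA 1), 24 of the 38 mitotic genes were lower with shRNA 1 and 1 was higher. The number lower was 13 to 26 with 1 of the 4 libraries of the hairpins left out. CENPA stood at a mean of 12.7 FPKM and CDC20 at 139 FPKM with shRNA 2. Against the same controls shRNA 2 had 5 mitotic genes higher and 3 lower (median 0.05), where 12.1% and 8.83% of all genes were called. For the replication list shRNA 2 had 1 higher and 30 lower (median −0.41), and 16 of the 51 genes were lower with shRNA 1 than with shRNA 2 (5 to 13 with 1 library of the hairpins left out). The 2 hairpins share these control libraries. Reads differ more between the 2 libraries of shRNA 2 than within the other groups, so p-values of tests against shRNA 2 may be too small. In bulk RNA fewer cells in a cycle phase and less mRNA per cell cannot be told apart.

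Genes of lipid synthesis were a further group that fell. Where 23.2% of all genes were called, 74.1% of the cholesterol list and 31.8% of the fatty acid and glycerolipid list were. Of 27 genes for cholesterol synthesis and uptake, all past the filter in both groups, 19 fell and 1 rose (median −0.70), and with 1 library left out 10, 9, 11 and 10 fell and 1 rose. SQLE, squalene epoxidase, which catalyses an oxygen-dependent step of the pathway, went from 24.9 and 23.5 FPKM to 11.2 and 10.4 FPKM (−1.09, SE 0.11, limma adjusted p = 0.00161). SREBF2, the transcription factor of the pathway, whose promoter is shown above, went from 36.6 and 34.5 FPKM to 16.6 and 15.4 FPKM. INSIG1, an ER protein that holds back SREBP processing and is itself an SREBP target, went from 23.1 and 21.8 FPKM to 8.54 and 8.22 FPKM.

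The shRNA 1 libraries were below the controls in these 3 genes, and the member that rose was INSIG2, from 3.07 and 3.51 FPKM to 7.10 and 7.90 FPKM. Against shRNA 2 directly, 15 of the 27 genes were lower with shRNA 1 and 0 higher (10 to 20 lower with 1 library of the hairpins left out). INSIG1 stood at a mean of 33.8 FPKM with shRNA 2 and was lower with shRNA 1 (limma adjusted p = 0.000256), while SREBF2 stood at 16.3 FPKM and did not pass this test (difference −0.02, limma adjusted p = 0.869). The comparison of shRNA 2 with the same controls gave 4 higher and 3 lower (median −0.07).

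**Figure D3:**
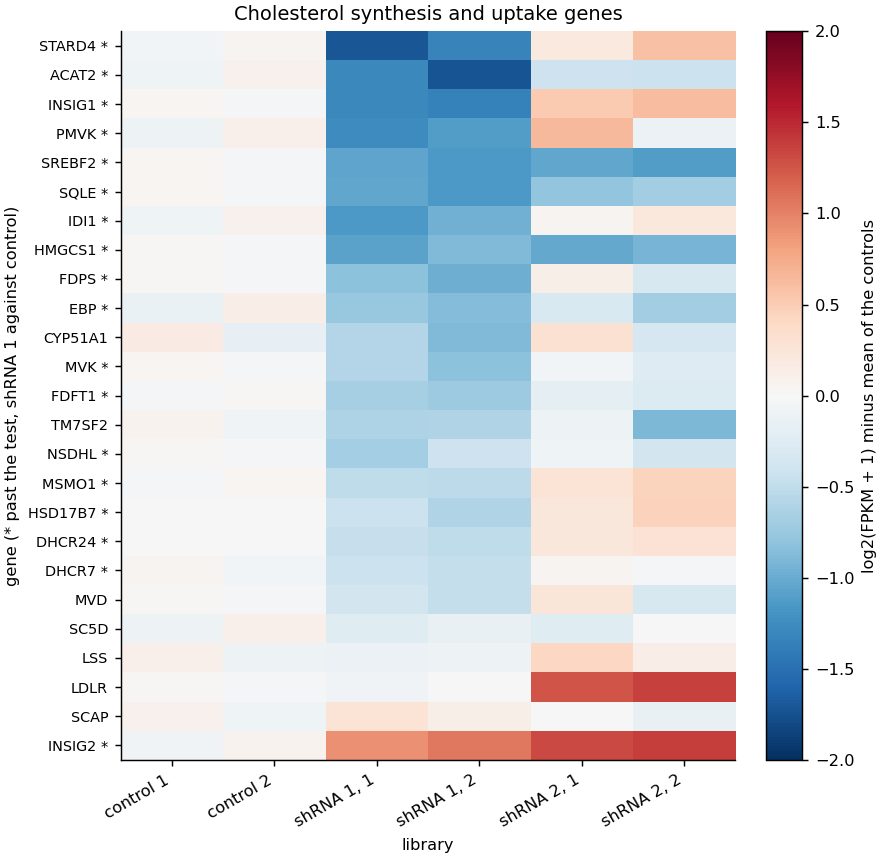
Rows are 25 of the 27 cholesterol genes, columns are the 2 control, 2 shRNA 1 and 2 shRNA 2 libraries, and colour gives log2(FPKM + 1) minus the mean of the controls. Both shRNA 1 columns are blue for most genes, the shRNA 2 columns are mixed, and INSIG2 is red in all 4 MAPKAPK2 shRNA columns.

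In the list of fatty acid and glycerolipid synthesis 7 of 22 measured genes fell and 0 rose, or 6 without the member measured through the controls only, and 4, 5, 4 and 5 fell with 1 library left out. With shRNA 2 against the same controls 6 of the 22 genes were higher and 1 lower (median 0.21). SCD, the desaturase that makes oleate, went from 171 and 155 FPKM to 58.0 and 60.4 FPKM (−1.45, limma adjusted p = 0.00136), against a mean of 289 FPKM with shRNA 2. FADS1, a desaturase of polyunsaturated fatty acids, went from 10.03 and 9.39 FPKM to 2.17 and 1.91 FPKM. ACSL3, which activates fatty acids, and ELOVL5, which lengthens them, had log2 differences of −1.14 and −1.03. Each of the 4 was lower with shRNA 1 in both of its libraries, and 10 of the 22 genes were lower than with shRNA 2 (6 to 11 with 1 library of the hairpins left out) while 1 was higher.

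Glycolysis genes fell in part. Of 26 genes 10 fell and 0 rose (median −0.18, and −0.10 under quantile normalization), and 4, 4, 3 and 5 fell with 1 library left out. Without the 3 members measured through 1 group only, 9 fell. The called share of the 26 genes was 38.5%, against 23.2% of all genes. SLC2A1, a glucose transporter of most cells, went from 128 and 124 FPKM to 61.3 and 55.9 FPKM (−1.09, limma adjusted p = 0.00089), and ALDOC, an aldolase, from 7.66 and 8.83 FPKM to 2.43 and 2.08 FPKM. In the direct comparison 21 of the 26 genes were lower with shRNA 1 than with shRNA 2 and 0 higher (13 to 19 with 1 library left out). With shRNA 2 against the same controls 16 were higher and 3 lower (median 0.57).

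Hypoxia genes outside glycolysis showed another order. With shRNA 1 against control 5 of 20 measured genes rose and 2 fell (median 0.16), or 3, 4, 3 and 3 rising and 0, 1, 0 and 0 falling with 1 library left out, and 15 of the 20 were lower than with shRNA 2 (12 to 15 with 1 library left out). Without the member measured through 1 group only, 5 rose and 1 fell. The called share of the 20 genes was 35.0%, against 23.2% of all genes. With shRNA 2 against the same controls 15 of the 20 genes were higher and 0 lower (median 1.19). AK4, a mitochondrial adenylate kinase, rose from 5.58 and 5.78 FPKM to 17.5 and 19.2 FPKM, and EPAS1 (HIF-2α) from 2.36 and 2.46 FPKM to 5.78 and 6.16 FPKM. Both shRNA 1 libraries were above both controls in the 2 genes.

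Targets of YAP and TEAD, which respond to cell shape and density, and of serum response factor (SRF) leaned down. Of 29 measured genes 15 fell and 4 rose (median −0.39), and with 1 library left out 8, 10, 9 and 9 fell and 2, 1, 2 and 1 rose. Without CTGF, measured through the controls only, 14 fell. Called genes were 65.5% of the 29, against 23.2% of all genes. CYR61, a matricellular protein, went from 44.6 and 41.3 FPKM to 5.21 and 6.79 FPKM (−2.66, SE 0.12), and CTGF, a related protein, from 4.17 and 5.60 FPKM to 0.477 and 0.531 FPKM, the latter from 21 and 19 reads. AMOTL2 and AJUBA, which feed back on the pathway, went from 29.8 and 26.4 FPKM to 6.29 and 6.90 FPKM and from 20.9 and 19.5 FPKM to 7.59 and 7.12 FPKM. Each of these 4 genes was low in both shRNA 1 libraries.

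Immediate-early genes and MAPK feedback genes split. Of 27 measured members 11 fell and 6 rose (median −0.32), and 6, 7, 6 and 6 fell and 3, 3, 3 and 4 rose with 1 library left out. Without the 2 members measured through 1 group only, 9 fell and 6 rose. Called genes were 63.0% of the 27, against 23.2% of all genes. EGR1, an immediate-early transcription factor, went from 46.3 and 44.2 FPKM to 16.4 and 13.8 FPKM (−1.53, limma adjusted p = 0.000491). FOSL2, an AP-1 subunit, went from 10.02 and 9.75 FPKM to 4.77 and 5.20 FPKM, and the stress factor ATF3 from 14.4 and 13.9 FPKM to 5.63 and 6.20 FPKM. DUSP4, a phosphatase of ERK and JNK, rose from 46.7 and 44.4 FPKM to 78.4 and 76.5 FPKM. The groups were apart in all 4 genes. With shRNA 2 against the same controls 9 of the 27 genes were higher and 1 lower (median 0.09). EGR1 stood at a mean of 36.1 FPKM and FOSL2 at 10.2 FPKM with shRNA 2, both above shRNA 1 (limma adjusted p = 0.000679 and 0.00133), and 12 of the 27 genes were lower with shRNA 1 and 4 higher.

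Epithelial adhesion genes leaned up. In the list of junctions and epithelial identity 35.7% of the measured genes were called, where 23.2% of all genes were. Of 28 measured genes of junctions and epithelial identity 8 rose and 2 fell (median 0.28), and 6, 6, 7 and 7 rose and 0 fell with 1 library left out. CDH1, E-cadherin, went from 15.1 and 13.5 FPKM to 27.2 and 27.5 FPKM (0.89, limma adjusted p = 0.00257). MAL2, a protein of apical transport, went from 70.7 and 73.9 FPKM to 150 and 149 FPKM, and TJP3, a tight junction scaffold, from 7.83 and 8.82 FPKM to 18.5 and 17.8 FPKM. Both shRNA 1 libraries were higher for each, and all 3 genes were also higher than with shRNA 2, where their means were 10.2, 54.0 and 8.42 FPKM (limma adjusted p = 0.000583, 0.000791 and 0.00303).

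Laminins and integrins, which bind epithelial cells to the basement membrane, gave 9 rises and 0 falls among 19 measured genes (median 0.56), where 11.0% of all genes rose, and 7, 6, 6 and 6 rises with 1 library left out. Without LAMA3, measured through shRNA 1 only, there were 8 rises among 18 genes (median 0.46). ITGB4, an integrin chain of hemidesmosomes, went from 50.9 and 46.5 FPKM to 136 and 129 FPKM (1.43, limma adjusted p = 0.000803). COL17A1, a hemidesmosome collagen, went from 1.24 and 1.39 FPKM to 4.25 and 3.75 FPKM, and LAMA3, a laminin chain of that structure, from 0.823 and 0.593 FPKM to 3.47 and 3.23 FPKM. LAMB1 had a log2 difference of 0.96. The shRNA 1 libraries were the higher ones throughout. Against shRNA 2 the list had 4 genes higher and 9 lower. With shRNA 2 against the same controls 9 of the 19 genes were also higher and 0 lower (median 0.37).

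CD44, the hyaluronan receptor, rose from 37.2 and 37.2 FPKM to 91.9 and 94.2 FPKM, HAS3, a hyaluronan synthase, from 10.97 and 9.12 FPKM to 28.4 and 30.1 FPKM, and CEMIP, which degrades hyaluronan, from 0.753 and 0.708 FPKM to 5.27 and 6.07 FPKM. HMMR, named for hyaluronan binding and a protein of the mitotic spindle, went from 16.4 and 17.1 FPKM to 6.44 and 5.83 FPKM. In the list of 13 measured hyaluronan and proteoglycan genes 5 rose and 3 fell, a called share of 61.5% where 23.2% of all genes were called. Without CEMIP, measured through shRNA 1 only, 4 rose, and with 1 library left out 3 rose each time and 2, 1, 2 and 2 fell. Next to urokinase, SERPINE2, an inhibitor of it, rose from 6.66 and 6.73 FPKM to 20.9 and 20.2 FPKM.

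Genes known as p53 targets rose more often than they fell. The called share of this list was 40.0%, where 23.2% of all genes were called. Of 25 measured genes 8 rose and 2 fell (median 0.26), or 5, 4, 3 and 5 rose and 0, 0, 1 and 0 fell with 1 library left out. BTG2, an antiproliferative gene, went from 8.57 and 9.62 FPKM to 33.5 and 32.0 FPKM (1.74, limma adjusted p = 0.000348), TP53INP1 from 3.70 and 3.13 FPKM to 17.6 and 19.6 FPKM, and SESN1, a stress-induced inhibitor of mTORC1 signalling, from 4.28 and 3.81 FPKM to 8.65 and 7.83 FPKM. The groups did not overlap in any of the 3. Against shRNA 2 directly 10 of the 25 genes were higher and 2 lower (4 to 10 higher with 1 library of the hairpins left out).

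Other lists held both directions. Where 23.2% of all genes were called, 46.7% of the ATF4 and integrated stress list and 37.5% of the ER folding list were. In the ATF4 and integrated stress list 7 of 30 measured genes rose and 7 fell, and with 1 library left out 4, 3, 3 and 4 rose and 2, 1, 1 and 2 fell. The arginine transporter gene SLC7A1 went from 23.2 and 21.9 FPKM to 9.41 and 9.90 FPKM, and ADM2 from 1.87 and 1.41 FPKM to 4.91 and 5.14 FPKM. Of 24 ER folding genes 4 rose and 5 fell, and 1 rose and 3, 3, 4 and 3 fell with 1 library left out. The ER chaperone gene CALR, calreticulin, went from 293 and 294 FPKM to 172 and 165 FPKM. Each of these 3 genes was separate between the groups.

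ID2, an inhibitor of differentiation factors, went from 90.5 and 98.8 FPKM to 34.7 and 32.0 FPKM, and SMAD7, which feeds back on TGF-β signalling, from 8.91 and 7.87 FPKM to 1.58 and 1.61 FPKM. HMGA2, a chromatin factor of embryonic and tumour cells, went from 14.2 and 13.4 FPKM to 51.9 and 53.4 FPKM. In the list of NRF2 and glutathione genes 6 of 17 fell and 1 rose, but 1 fell and 0 rose with any 1 of the 4 libraries left out. NQO1, a quinone reductase, kept its call, with 45.4 and 49.4 FPKM in the controls and 20.4 and 20.5 FPKM with shRNA 1. In the fit to all libraries 41.2% of the NRF2 and glutathione list was called, against 23.2% of all genes. ATP6V1A, the catalytic subunit of the lysosomal proton pump, rose from 7.70 and 6.93 FPKM to 22.0 and 23.5 FPKM. These 5 genes were apart between the groups.

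A few more lists had clear members. Where 23.2% of all genes were called, 55.0% of the mismatch and homologous repair list and 77.8% of the mesenchymal list were. Of 20 measured mismatch and homologous repair genes 11 fell and 0 rose (median −0.48), or 3, 3, 3 and 4 fell with 1 library left out. FANCI, of the Fanconi anaemia pathway, went from 20.5 and 20.4 FPKM to 10.2 and 10.3 FPKM. Of 9 measured mesenchymal genes, out of 22 listed, 5 fell and 2 rose, and with 1 library left out 2, 2, 3 and 2 fell and 2 rose. Without THBS1, measured through the controls only, 4 fell. THBS1, thrombospondin, went from 4.34 and 3.72 FPKM to 0.754 and 0.643 FPKM, while COL6A1, a collagen VI chain, went from 18.2 and 17.4 FPKM to 40.6 and 37.6 FPKM. The shRNA 1 libraries were thus low for one matrix gene and high for the other.

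Among 32 measured interferon and antigen processing genes 5 rose and 8 fell, and with 1 library left out 3, 3, 2 and 2 rose and 1, 2, 1 and 2 fell. Without the 3 members measured through 1 group only, 4 rose and 7 fell. Called genes were 40.6% of the 32 and 7.7% of the RNA interference list below, against 23.2% of all genes. IRF7, a transcription factor of the interferon response, went from 10.7 and 9.26 FPKM to 3.03 and 3.11 FPKM, and B2M, the light chain of MHC class I, from 25.2 and 30.3 FPKM to 52.4 and 47.0 FPKM. Of 13 genes of the RNA interference machinery 1 rose and 0 fell, and 0 rose with any 1 of the 4 libraries left out. Among 12 measured EGF receptor ligands and receptors AREG fell and 2 rose, a called share of 25.0% that is near the 23.2% of all genes. Without the member measured through 1 group only, 1 fell and 2 rose among 11 genes. EGFR itself, among the 2 that rose, went from 7.56 and 6.27 FPKM to 15.9 and 17.0 FPKM. With 1 library left out 1 rose and 1 fell each time.

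Ribosomal protein genes and mitochondrially encoded genes, both abundant, leaned in opposite directions. Called genes were 9.5% and 7.7% of these lists, where 23.2% of all genes were called. Of 42 ribosomal protein genes 40 stood below 0 (median −0.35), 4 fell and 0 rose, and 0 fell with any 1 of the 4 libraries left out. More fell under other alternatives, 16 in the fit to these 4 libraries alone, 17 with limma voom, 16 in each fit that leaves out 1 library of shRNA 2 and 11 with protein-coding genes only. Quantile normalization brought the median to −0.12, with 4 genes fallen. Of 13 mitochondrially encoded genes 11 stood above 0 (median 0.35, and 0.11 under quantile normalization), and MT-CO1, a subunit of cytochrome oxidase, was the single one past the test, at 7043 and 7944 FPKM in the controls and 16072 and 13658 FPKM with shRNA 1, a call lost in 5 of 8 leave-one-out fits. Without the mitochondrial genes, and with FPKM rescaled to the remaining reads, 3288 genes were called, 3 ribosomal protein genes fell and the median of those 42 genes was −0.31. The shares of reads on mitochondrial genes in the 4 libraries are given above.

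**Figure D4:**
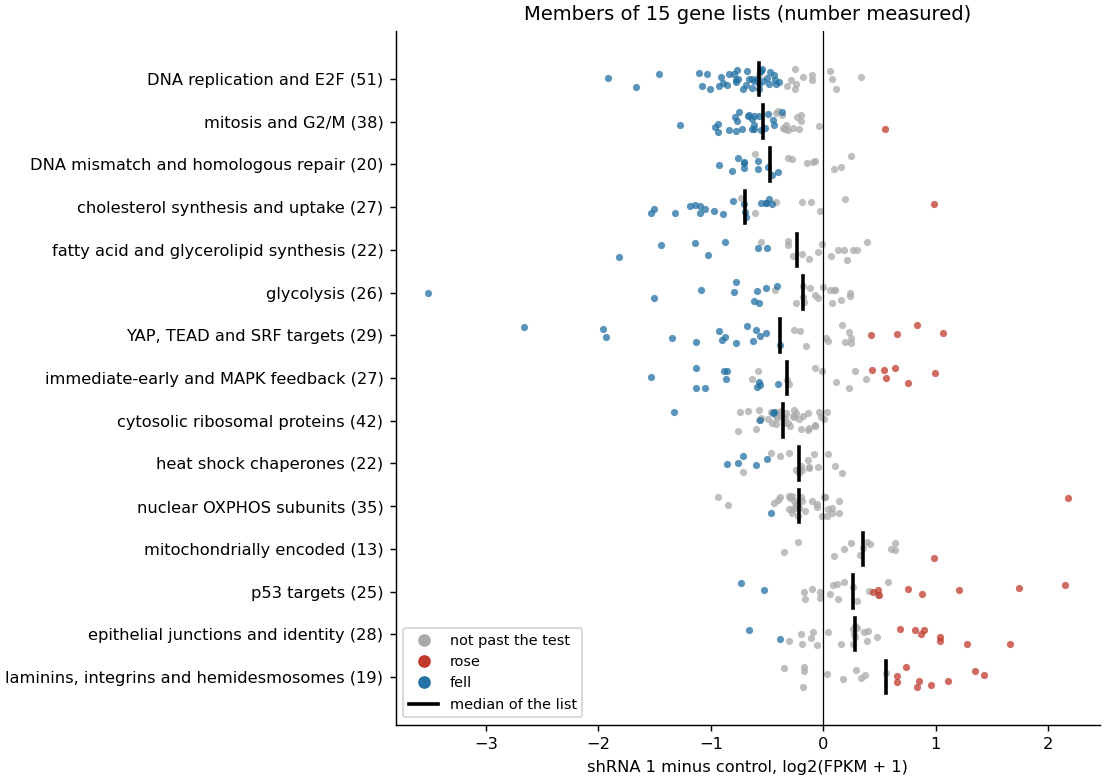
Each point is a measured member of 1 of 15 gene lists, placed by its difference between shRNA 1 and control on the log2(FPKM + 1) scale, red where it rose, blue where it fell and grey where it did not pass. Black bars are list medians, which run from −0.70 for cholesterol genes to 0.56 for laminins and integrins.

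Single genes stood apart with shRNA 1 from both the controls and shRNA 2. They were picked for passing both tests in the same direction and ranked by the smaller of the 2 differences. Their standing apart and their values against shRNA 2 thus follow from the choice and are no further evidence. SMARCC1, a core subunit of the SWI/SNF chromatin remodelling complex, went from 41.4 and 39.9 FPKM in the controls to 9.50 and 10.3 FPKM with shRNA 1, and stood at 38.2 and 43.1 FPKM with shRNA 2. FAM32A went from 51.9 and 55.9 FPKM to 15.4 and 15.7 FPKM, with 66.2 and 61.1 FPKM with shRNA 2. PEBP1, an inhibitor of RAF signalling, went from 106 and 119 FPKM to 33.5 and 34.0 FPKM, with 132 and 120 FPKM with shRNA 2. In all 3 the shRNA 1 libraries alone were low among these 6. The log2 differences from shRNA 2 were −1.93, −1.96 and −1.87 (limma adjusted p = 0.00029, 0.000272 and 0.000272).

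FCF1, a factor of small ribosomal subunit assembly, went from 9.91 and 12.2 FPKM to 2.43 and 2.70 FPKM and stood at 14.8 and 14.8 FPKM with shRNA 2. The transcriptional corepressor AES, TENT5B and the cytochrome P450 CYP4F11 followed, with log2 differences from shRNA 2 of −1.81, −1.89 and −1.91. Sequences of the hairpins were not used here, so matches between a hairpin and these mRNAs were not examined.

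On the side of the rises, SCG2, MSH4, KRT13 and PLAU stood at means of 9.19, 0.973, 0.989 and 11.4 FPKM with shRNA 2. AVPR2, a vasopressin receptor, went from 0.637 and 0.624 FPKM to 5.12 and 5.23 FPKM, with 0.797 and 0.772 FPKM with shRNA 2. PTGES, a prostaglandin E synthase, went from 8.17 and 7.05 FPKM to 28.3 and 25.9 FPKM and stood at 5.71 and 4.36 FPKM with shRNA 2. S100A4, a calcium-binding protein of motile cells, went from 73.6 and 90.1 FPKM to 314 and 284 FPKM, with 118 and 73.5 FPKM with shRNA 2. The shRNA 1 libraries were the highest of the 6 for each, which follows from how these genes were picked. ANO1, a chloride channel, had log2 differences of 1.47 from control and 1.76 from shRNA 2.

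**Figure D5:**
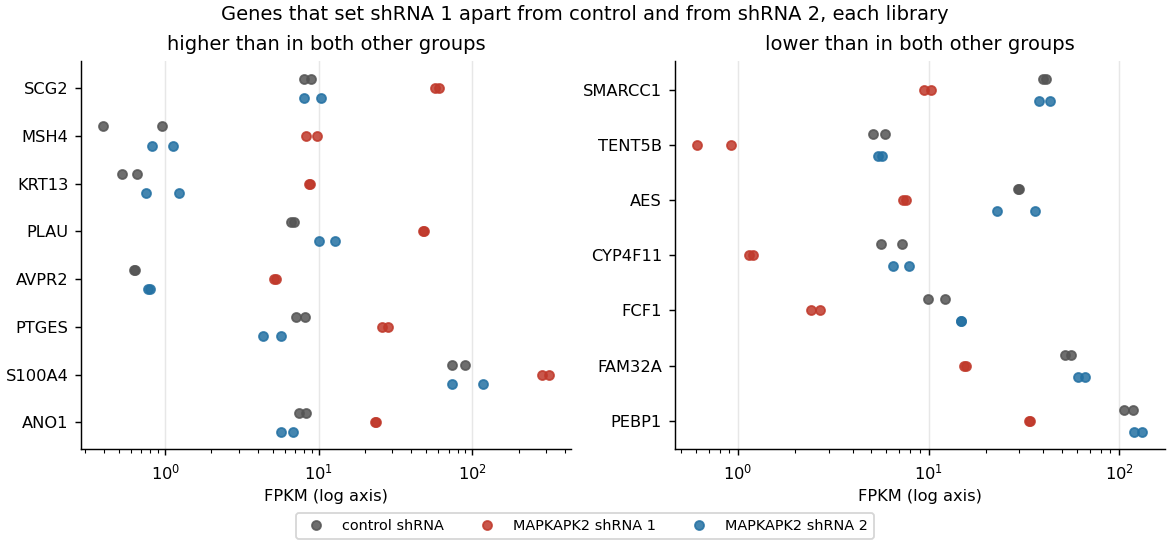
FPKM on a log axis for 8 genes higher with shRNA 1 than in both other groups (left) and 7 lower (right), 1 point per library, control in grey, shRNA 1 in red and shRNA 2 in blue. The grey and blue points of SMARCC1 lie between 38.2 and 43.1 FPKM and its red points at 9.50 and 10.3 FPKM.

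Among lncRNA genes LINC01338 rose from 2.46 and 1.96 FPKM to 8.74 and 8.59 FPKM, with 1.25 and 1.57 FPKM with shRNA 2. AC107308.1, annotated within an intron, fell from 12.9 and 15.3 FPKM to 6.53 and 6.08 FPKM, from 37 and 28 reads. Both changes passed (limma adjusted p = 0.000803 and 0.00161), and the groups were apart. AL031848.1 and AC105219.1 had log2 differences of 1.60 and 1.92 with calls lost in 3 and 5 of 8 leave-one-out fits, and 55.5% of the exon bases of AC105219.1 overlap MAPK15.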

How the data were processed

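Libraries were made from total RNA of HCT116 cells with random hexamer priming, per the labels' protocols, which do not say whether strand was kept. The submitters' processing notes name DESeq2 1.20.0, HISAT2 2.0.5 and featureCounts 1.5.0-p3, without roles. The authors deposited FPKM for 58735 genes in 8 libraries, and the identifiers, positions and lengths equal GENCODE 29 on GRCh38. Each FPKM times gene length was a whole multiple of 1 step per library, which gave back reads for 100% of values. The step also gives the library size that the FPKM were divided by. Reads in genes were 0.967 and 0.980 of that size in the controls and 0.970 and 0.932 with shRNA 1. With shRNA 2 they were 1.045 and 1.053 of it. That size was thus not the plain sum of reads, and the FPKM may already hold a scaling between libraries. These 4 libraries hold 14252316 to 18270915 reads in genes. All columns were mapped by title.

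Values were set on the log2(FPKM + 1) scale, which understates changes of low genes. One limma model (limma 3.58.1, R 4.3.3, eBayes with an intensity trend) was fitted to 4 group means over all 8 libraries, with 4 residual degrees of freedom, and p-values were adjusted over 14762 genes by Benjamini-Hochberg at 0.05. It was tested on simulated data with the same spread in all groups. The fit takes 1 spread per gene for all groups, but the real groups differ. The mean chi-square per gene between the reads of the 2 libraries was 6.92 for control and 8.12 for shRNA 1. It was 37.0 for shRNA 2 and 13.8 for control at 0 mM. Tests against shRNA 2 may thus understate its spread, and those of shRNA 1 against control may overstate theirs. Alternatives were other scalings, filters and pseudocounts, limma voom on those reads, a replicate block, leaving out each library, and, added after the data were seen, leaving out mitochondrial genes and testing protein-coding genes only.

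The 49 gene lists (1064 entries, 1039 genes), the comparison and the tests were chosen with earlier results of these data known. Named genes are the p38 and MK2 list, the 12 largest rises and falls among protein-coding genes past the test with at least 5 FPKM and no overlap of libraries, the 8 per direction that also differ most from shRNA 2, up to 4 genes per list by p, 3 lncRNA genes per direction, 5 per direction by FPKM difference, and 5 per direction that go from under 0.5 to at least 2 FPKM or back. Some are not reported here. Exon overlaps over 20% are given for the genes with values. Reads of overlapping genes cannot be told apart without strand.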

Additional observations from a re-analysis of the deposited data

Results flagged for a closer look

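Genes were set aside for a closer look where both hairpins passed the test against control in opposite directions. Of the 14762 genes 173 met this. The direct difference between shRNA 1 and shRNA 2 passed in all 173, which opposite calls against the same controls bring with them. The 11 given here are among those that the rule for named genes picked, so they are a selection. The 2 hairpins share the control libraries. Values are differences of log2(FPKM + 1), shRNA 1 minus shRNA 2. Groups of 2 libraries are too small to single out a library.

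Lipid and metabolic genes were SCD, with a difference of −2.26 (means of 163, 59.2 and 289 FPKM in control, shRNA 1 and shRNA 2), INSIG1 with −1.89 (22.4, 8.38 and 33.8 FPKM), ALDOC with −2.63 (8.24, 2.25 and 19.4 FPKM), the mitochondrial isocitrate dehydrogenase IDH2 with −1.68 (9.93, 5.96 and 21.4 FPKM), the mitochondrial arginase ARG2 with −2.56 (1.91, 0.218 and 6.20 FPKM), the nucleotide kinase CMPK1 with −1.06 (31.7, 22.2 and 47.3 FPKM) and the insulin receptor gene INSR with −1.05 (4.32, 2.33 and 5.90 FPKM). With 1 library left out the calls of shRNA 1 against control for IDH2 and CMPK1 were each lost in 4 of 8 fits.

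Of the other named genes FCF1 differed by −2.15 (11.1, 2.56 and 14.8 FPKM) and DUSP1 by −1.04 (9.03, 5.85 and 13.0 FPKM). CDH1 differed by 1.34 (14.3, 27.3 and 10.2 FPKM) and PTGES by 2.23 (7.61, 27.1 and 5.03 FPKM), both higher with shRNA 1.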

How the results depend on the processing

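MAPKAPK2 passed with a similar fall under every alternative tried. The count of genes changed with shRNA 1, 3423, moved by over 1.5 times to 2223 without the filter on low values, and it ran from 1052 to 4275 when 1 library was left out. Under the other alternatives it was 2858 to 4418, among them 4418 with these 4 libraries alone and 4183 (1986 higher, 2197 lower) in the limma voom fit to recovered reads. The count of genes that differ between shRNA 1 and shRNA 2, 3653, ran from 1457 to 3586 with 1 library left out. Leaving a group with 1 library assumes that it varies like the other groups. The share of higher genes among calls stayed within 10 percentage points of 47.3% under each scaling.

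Of 207 named genes past the test 135 kept their call in each leave-one-out fit and 169 in each other alternative. Of 4728 gene alternatives 4316 kept direction and side of the threshold, 344 lost the call, 59 gained it and 9 changed sign. Those 9 are of genes that did not pass. Under quantile normalization RPS6KA4 was at 0.073, MKNK2 at 0.0506, MT-ATP6 at −0.13 and KRT18 at 0.15. Over the fits that leave out 1 library RPS6KA4 ran from −0.0732 to 0.0212, CREB1 from −0.101 to 0.0551 and ZFP36L2 from −0.00181 to 0.18. Without mitochondrial genes RPS6KA4 was at 0.0157 and CREB1 at 0.0126. The cause was not tested. Without the filter on low values, which tests 35173 genes, falls were fewer for mismatch and homologous repair (6), NRF2 and glutathione (2), ATF4 (4) and interferon genes (2), and 5 p53 targets rose.

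The labels give each group a library 1 and 2. Deviations of library 1 from the group mean correlated at 0.0005 between control and shRNA 1, and at −0.02 to 0.23 over the other pairs of groups, so the numbers were not taken to pair the libraries. With the replicate block 3712 genes passed. Genes with few reads, such as SLC2A3 with shRNA 1, are limited by depth.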
